A study of Mus musculus with 18 samples.

Results

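The angiopoietin and Tie receptor axis was followed through the 3 major cell types of the mouse glomerulus, in *Cd2ap*-/- mutants and controls. It was taken as 7 genes: the ligands *Angpt1* and *Angpt2*, the receptors *Tek* (also called Tie2) and *Tie1*, the phosphatase *Ptprb*, and the angiopoietin-like genes *Angptl2* and *Angptl4*. Members were the rows of the deposited array table that carry one of these gene symbols. Each symbol was found on 1 transcript cluster with no other symbol, which gives 7 of the 28856 transcript clusters and 7 of the 22909 symbols of the table. A transcript cluster is the set of probes that the array assigns to 1 gene.

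The angiopoietins are secreted ligands of the receptor tyrosine kinase TEK, which sits mainly on endothelial cells. ANGPT1, made by perivascular cells and podocytes, activates the receptor and keeps vessels quiet and tight, while ANGPT2 acts as a weaker, context dependent ligand that can oppose it. TIE1 has no well established ligand of its own among the angiopoietins and modulates TEK, PTPRB (VE-PTP) dephosphorylates TEK, and the angiopoietin-like proteins resemble the ligands in sequence but do not act through TEK.

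CD2AP is an adaptor protein of the podocyte slit diaphragm, and mice without it develop glomerulosclerosis. Glomeruli were isolated at 5 weeks of age, dissociated, and sorted by FACS for GFP, and amplified RNA was hybridized to Affymetrix Mouse Gene 1.0 ST arrays. There were 3 arrays in each of 6 groups, which the series record calls biological triplicates: mutant and wild type endothelial cells, mesangial cells and podocytes. No source used here ties an array to 1 animal or to a pool, so a p value measures the spread between these arrays.

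The mutant allele was B6.129X1-*Cd2ap* tm1Shaw/J, and mutants and controls of a cell type carried the same GFP reporter. Endothelial cells were gated by *Tie2-GFP*, Tg[*TIE2GFP*]287Sato/J, in which a promoter of *Tek* itself drives GFP. Mesangial cells were gated by *Meis1-GFP*, Tg(*Meis1-EGFP*)FO156Gsat, and podocytes by a GFP reporter of another line. The 3 cell types thus come from 3 transgenic lines, and cell type and reporter line cannot be told apart. The labels give no treatment. Mesangial controls carry a +/- mark in the column names and are called control in their titles, the other controls carry a +/+ mark, and the genotype field of the sample records reads wild type for all of them, the term used here.

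The letters A, B and C name the arrays of a group by column, and nothing more. The signal is a linear RMA intensity, its median per array lay between 62.8 and 71.6, and Pearson's r between the 18 pairs of arrays within groups ran from 0.967 to 0.992. *Cd2ap* was read as the check of the labels. It was lower in mutant arrays by a log2 difference of -0.31 in mesangial cells (adjusted p = 0.151) and -0.23 in podocytes (adjusted p = 0.504), and higher by 0.18 in endothelial cells (adjusted p = 0.336). Which part of the gene the probes cover was not examined, so directions rest on the labels.

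The labelled cell types were checked by summing marker signals on each array. The 8 podocyte markers summed to between 12490 and 15210 in podocytes and to between 852.7 and 1734 on the other arrays, apart from wild type mesangial array C, at 3838. The 8 endothelial markers summed to between 14130 and 16190 in endothelial cells, and the 6 mesangial markers to between 6396 and 9339 in mesangial cells. Each label was thus borne by its own markers, although *Meis1*, among the mesangial markers, is also the gene of the sorting reporter. Endothelial markers were not absent elsewhere. They summed to 4623, 5500 and 4171 in wild type podocytes A, B and C, against 2607, 1137 and 744.5 in the mutant podocytes.

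Wild type mesangial array C stood apart. Its endothelial markers summed to 7218, against 2446 and 2630 on arrays A and B, its 6 tubule markers to 905.9, against 376.9 and 353.5, and its 8 leukocyte markers to 843.6, against 429.2 and 399.8. Most values of the members that rest on the wild type mesangial arrays, and some values of other genes, are therefore also given without array C. That choice was made after the values were seen. Wild type podocyte array B had higher markers of other cells too, with tubule markers at 809 against 454.2 and 477.1 and leukocyte markers at 736.8 against 477.7 and 550.4, and it was the highest wild type podocyte array for the endothelial markers, *Tek* and *Ptprb*. In bulk RNA of sorted cells, fewer cells of a type and less RNA per cell cannot be told apart.

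*Tek* and *Tie1* are shown with their promoters, because the reporter that defined the endothelial gate is driven by the promoter of the first and because both were high in the sorted endothelial cells. Of the 7 genes, 3 had an entry in the RefSeq promoter table, these and *Angptl2*. Each window runs from 250 bases before to 50 bases after the start of the gene in GRCm38.p6, at chr4:94739039-94739338 on the plus strand for *Tek* and at chr4:118489800-118490099 on the minus strand for *Tie1*. The sequences are printed 5′ to 3′ in lower case, with capitals at GGAA or, for the other strand, TTCC, the core of the motif that ETS factors bind.
Tek promoter: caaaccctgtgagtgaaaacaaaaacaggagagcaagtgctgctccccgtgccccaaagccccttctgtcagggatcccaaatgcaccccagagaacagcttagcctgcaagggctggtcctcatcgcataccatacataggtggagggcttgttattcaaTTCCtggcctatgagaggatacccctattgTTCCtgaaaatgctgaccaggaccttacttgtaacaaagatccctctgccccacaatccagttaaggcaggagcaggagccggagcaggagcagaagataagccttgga
Tie1 promoter: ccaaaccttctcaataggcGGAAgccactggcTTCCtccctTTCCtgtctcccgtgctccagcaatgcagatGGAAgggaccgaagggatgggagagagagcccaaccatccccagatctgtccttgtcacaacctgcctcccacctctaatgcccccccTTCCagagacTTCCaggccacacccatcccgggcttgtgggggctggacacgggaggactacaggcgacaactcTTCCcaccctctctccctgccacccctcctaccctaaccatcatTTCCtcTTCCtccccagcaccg
The *Tek* window held 2 matches to GGAA on either strand, a number that 84.6% of the 32851 promoters of the table reach. The *Tie1* window held 9, which 1.59% of those promoters reach. A GATA motif, searched as AGATAA and TTATCT, matched once in *Tek* and not in *Tie1*, and 11.2% of promoters held it. The forkhead motif GTAAACA, with TGTTTAC for the other strand, matched in neither window and in 3.65% of promoters. These counts describe letters in short windows.

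Of the ligands, *Angpt2* had its highest signals in mesangial cells. Wild type mesangial arrays A, B and C gave *Angpt2* signals of 1381, 1257 and 876.7, wild type podocytes 229.3, 291.9 and 242.9, and wild type endothelial cells 89.5, 80.1 and 78.9. The 3 groups did not overlap, and the endothelial arrays lay under the signal minimum of 100 that the study's methods set. On the log2 scale *Angpt2* was lower in podocytes than in mesangial cells by 2.18 (difference -2.18, SE 0.17, adjusted p = 2.0e-05), in endothelial cells than in mesangial cells (-3.80, SE 0.17, adjusted p = 2.3e-07) and in endothelial cells than in podocytes (-1.62, adjusted p = 6.9e-05). Without mesangial array C the first 2 differences were -2.38 and -3.99.

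*Angpt1*, the ligand best known for activating TEK, stayed under 100 on each of the 18 arrays and was therefore not tested. Its signals were 37.6, 37.0 and 58.7 in wild type mesangial cells, 39.5, 36.3 and 34.0 in wild type podocytes and 38.5, 37.8 and 46.2 in wild type endothelial cells. The wild type groups overlapped, and at this signal the arrays do not order the cell types for *Angpt1*.

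The receptors and the phosphatase were highest in endothelial cells. *Tek* gave 1994, 2033 and 1871 in wild type endothelial cells, 574.7, 783.5 and 1090 in wild type mesangial cells and 410.4, 524.3 and 324.5 in wild type podocytes. Since a *Tek* promoter set the endothelial gate, its difference from the other cell types (1.32 above mesangial cells and 2.25 above podocytes on the log2 scale) is a description of the sort, and the first was 1.55 without mesangial array C. The difference between the other cell types was not set by that gate, and *Tek* was lower in podocytes than in mesangial cells (log2 difference -0.94, SE 0.23, adjusted p = 0.0138), at -0.70 with adjusted p = 0.0276 without mesangial array C. Without wild type podocyte array C the adjusted p was 0.0558.

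*Tie1*, the second receptor, gave 437.1, 346.9 and 355.6 in wild type endothelial cells and 126.0, 129.3 and 108.0 in wild type podocytes. In wild type mesangial cells it gave 66.4 and 59.9 on arrays A and B and 151.0 on array C, the array with the high endothelial markers. Endothelial cells lay above both other cell types without overlap, by 2.16 over mesangial cells (SE 0.30, adjusted p = 4.5e-04) and 1.65 over podocytes (adjusted p = 0.00184). Podocytes and mesangial cells did not differ by the test (0.52, 95% interval -0.15 to 1.18, adjusted p = 0.221), whereas without array C podocytes were higher by 0.94 (adjusted p = 7.8e-04) and endothelial cells were 2.58 above mesangial cells. In that fit 6 of the 8 endothelial markers were also called higher in podocytes than in mesangial cells and 1 lower, with a median of 1.39. With array C, 0 were called higher and 1 lower, with a median of 0.72. The shares of all clusters called without array C are not given here.

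*Ptprb*, which encodes the phosphatase that acts on TEK, gave 2153, 2327 and 2396 in wild type endothelial cells, 467.9, 652.4 and 450.0 in wild type podocytes, and 302.0, 310.9 and 1030 in wild type mesangial cells. Endothelial cells were again above the others without overlap, by 2.32 over mesangial cells (adjusted p = 0.00188) and 2.15 over podocytes (adjusted p = 0.00229). The neighbours in this order, podocytes and mesangial cells, differed by 0.17 (95% interval -0.73 to 1.07, adjusted p = 0.785), and by 0.75 without array C (adjusted p = 0.00663), when endothelial cells were 2.90 above mesangial cells. The 0.75 comes from the same fit as the 6 endothelial markers called higher, whose part in it was not tested.

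*Angptl2*, which encodes a secreted angiopoietin-like protein, had its highest signals in podocytes. Wild type podocytes gave 1462, 1511 and 1472, wild type mesangial cells 451.3, 426.9 and 476.4, and wild type endothelial cells 59.0, 101.9 and 59.6. The groups did not overlap. Podocytes exceeded mesangial cells by 1.72 (SE 0.19, adjusted p = 1.2e-04) and endothelial cells lay below podocytes by a log2 difference of -4.38 (SE 0.19, adjusted p = 2.8e-07), with 2 of the 3 endothelial arrays under 100. Without mesangial array C podocytes were 1.75 above mesangial cells.

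*Angptl4*, which encodes an inhibitor of lipoprotein lipase and is a known target of PPAR receptors, lay near the minimum throughout, with 4 of 18 arrays at or above 100. It gave 101.5, 104.9 and 90.8 in wild type mesangial cells, 99.6, 74.9 and 83.5 in wild type podocytes and 60.1, 69.1 and 66.1 in wild type endothelial cells. Endothelial cells were lower than mesangial cells (-0.61, SE 0.12, adjusted p = 0.00384), while podocytes and mesangial cells overlapped (-0.21, 95% interval -0.48 to 0.06, adjusted p = 0.214). The podocyte and endothelial arrays all lay under 100, and the gene entered that fit through mesangial arrays A and B. The difference of endothelial cells from podocytes was -0.39 (adjusted p = 0.0260 with limma, up to 0.0838 with 1 array left out). That value and the -0.61 against mesangial cells are therefore given as descriptions. The 2 differences from mesangial cells were -0.67 and -0.27 without array C.

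**Figure D1:**
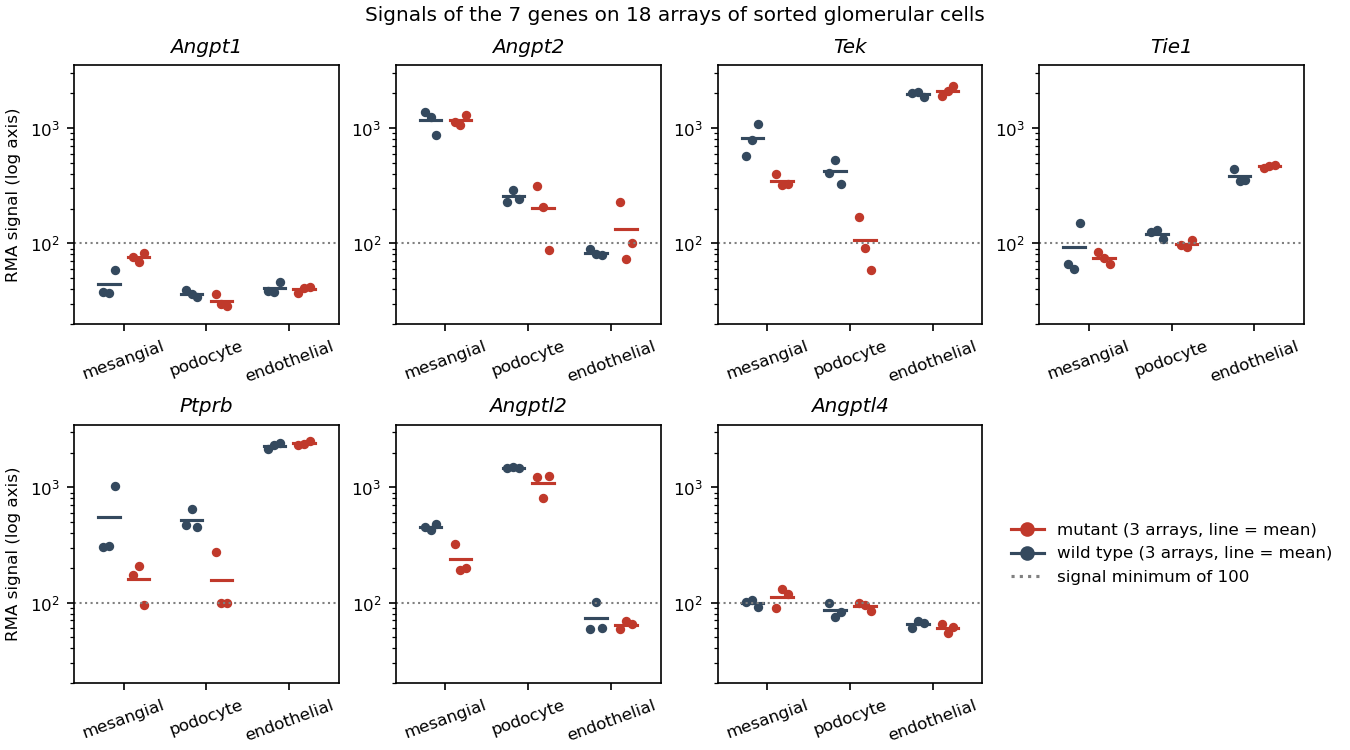
RMA signal (log axis) of the 7 genes on each of the 18 arrays, with wild type in dark blue and mutant in red, a short line at the mean of 3 arrays and a dotted line at the signal minimum of 100. *Tek*, *Tie1* and *Ptprb* are highest in endothelial cells, *Angpt2* in mesangial cells and *Angptl2* in podocytes, and *Angpt1* lies under the minimum on every array.

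Counted over the members, 3 of 6 tested passed in the wild type comparison of podocytes with mesangial cells, where 27.9% of all 12537 clusters tested did. With the endothelial cells, 5 of the 5 tested members other than *Tek* passed against mesangial cells (32% of clusters) and against podocytes (38.8% of clusters). Both counts include *Angptl4*, which entered the fit through mesangial arrays alone. Against podocytes it lay under 100 on every array of the contrast. Without mesangial array C the count between podocytes and mesangial cells was 5 of 6, through *Tie1* and *Ptprb*. The 27.9% belongs to the fit with array C. The share of all clusters without it is not given here, so the rise has no background beside it.

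**Figure D2:**
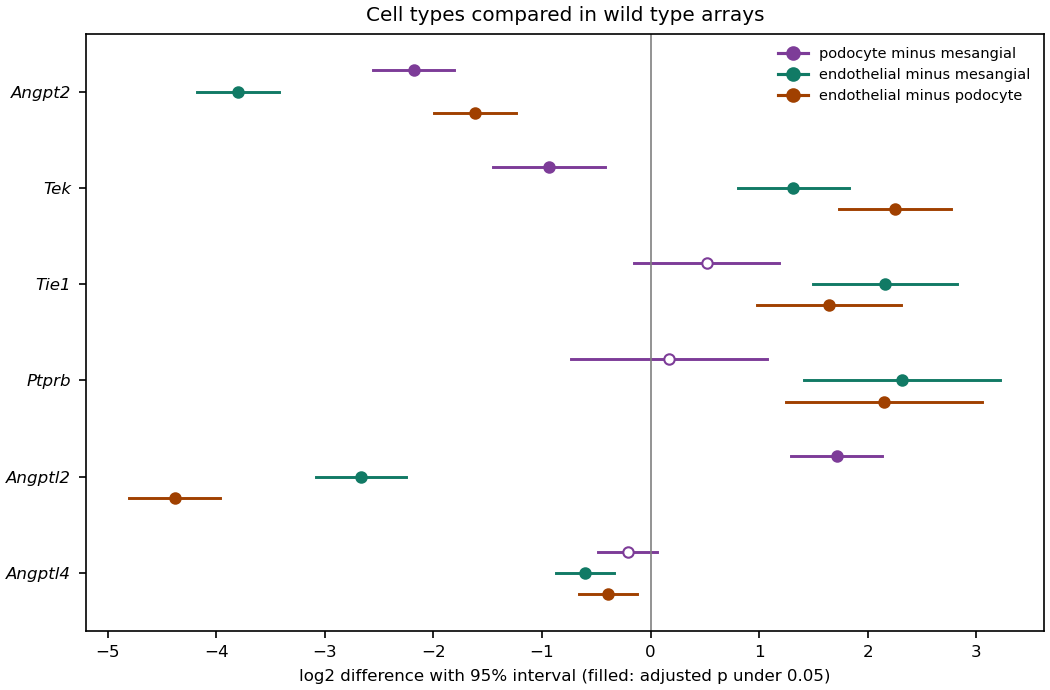
Log2 differences between cell types over the 9 wild type arrays for the 6 tested genes, with points at the limma estimate, bars for the 95% interval, and filled points where the adjusted p is under 0.05. *Angpt2* and *Angptl2* lie far below 0 in endothelial cells, at -3.80 and -4.38 in their largest contrasts, and the receptors and *Ptprb* lie above 0 against both other cell types. *Angptl4* entered this fit through mesangial arrays alone. Its point for endothelial cells against podocytes compares arrays that all lie under 100.

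The mutant arrays, which share no array with the wild type ones, gave the same order for most members. *Angpt2* was lower in mutant podocytes (-2.69, adjusted p = 0.00291) and in mutant endothelial cells (-3.28, adjusted p = 7.1e-04) than in mutant mesangial cells, but mutant endothelial cells and podocytes were not separated (-0.59, 95% interval -1.67 to 0.49, adjusted p = 0.332). *Ptprb* was higher in mutant endothelial cells by 3.99 over mesangial cells (adjusted p = 4.8e-05) and 4.11 over podocytes (adjusted p = 3.3e-05). *Tie1* was higher in them by 2.64 and 2.24 (adjusted p = 5.6e-07 and 6.2e-07). *Tek* was lower in mutant podocytes than in mutant mesangial cells (-1.84, adjusted p = 0.0021). *Ptprb* was not separated between these groups (-0.12, adjusted p = 0.834), where the wild type difference was 0.17. *Angpt1* had means of 76.0 in mutant mesangial cells, 31.8 in mutant podocytes and 40.1 in mutant endothelial cells. The mesangial arrays did not overlap the others, but the gene was under 100 and not tested.

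*Angptl2* kept its peak in mutant podocytes, 2.21 above mesangial cells (adjusted p = 1.1e-04) and with endothelial cells at -4.06 against podocytes (adjusted p = 1.0e-06). *Angptl4* was lower in mutant endothelial cells than in mutant mesangial cells (-0.89, adjusted p = 0.00181). The mutant endothelial and podocyte arrays all lay under 100 for *Angptl4*, which entered that fit through mesangial arrays. The -0.89 and the difference between these 2 groups (-0.63, adjusted p = 0.00805 with limma) are both given as descriptions. *Tie1* was 0.40 higher in mutant podocytes than in mutant mesangial cells (adjusted p = 0.0282), a call lost with medians subtracted (0.0568), with all 18 arrays in 1 fit (0.195) and without mutant mesangial array B (0.0828) or C (0.101) or mutant podocyte array C (0.0673). In all, 4 of 6 members passed between mutant podocytes and mesangial cells, where 29% of 13063 clusters did. Among members other than *Tek*, 5 of 5 passed between endothelial and mesangial cells (22.8% of clusters) and 4 of 5 between endothelial cells and podocytes (47.1% of clusters). Both of these counts include *Angptl4*, which entered through mesangial arrays alone. In the last contrast it was under 100 on every array.

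Genotypes were then compared within each cell type. In mesangial cells, *Tek* was the 1 member of 6 tested that passed, where 2.92% of 11457 clusters did. *Tek* signals were 397.5, 323.4 and 324.4 in mutant mesangial arrays A, B and C and 574.7, 783.5 and 1090 in wild type ones. Every mutant array lay below every wild type array. *Tek* fell by 1.19 on the log2 scale, a fold of 2.28 (SE 0.23, adjusted p = 0.0497), which is close to the threshold. The fall was 0.95 without wild type array C (log2 difference -0.95, adjusted p = 0.0478). The adjusted p was 0.106 without mutant array A, 0.162 without mutant array B, 0.122 without mutant array C and 0.153 without wild type array B. The call was also lost with no signal minimum (adjusted p = 0.0941), with array medians subtracted (0.0535) and with quantile normalization repeated (0.0529).

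*Ptprb* gave 174.9, 207.2 and 95.5 in mutant mesangial arrays and 302.0, 310.9 and 1030 in wild type ones, again without overlap. The log2 difference was -1.60 (SE 0.52, adjusted p = 0.150), and -1.02 without array C (adjusted p = 0.164). *Angptl2* gave 322.3, 192.0 and 200.5 against 451.3, 426.9 and 476.4, and these groups did not overlap either. Its log2 difference was -0.96 (SE 0.20, adjusted p = 0.0597), at -0.92 without wild type array C (adjusted p = 0.110), and it passed at -1.20 without mutant array A (adjusted p = 0.0150). With all 18 arrays sharing 1 estimate of the spread, *Ptprb* and *Angptl2* both passed (adjusted p = 0.0499 and 0.0203).

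These 3 genes, *Tek*, *Ptprb* and *Angptl2*, also met the screen of the study's methods, an unadjusted p under 0.05 with a fold over 1.5, all of them lower, as did 3.12% of the clusters tested. None of the 3 overlapped, and being lower without overlap held for 16.3% of clusters. *Angpt1* was the member that lay the other way. Its signals were 76.4, 69.3 and 82.3 in mutant mesangial cells against 37.6, 37.0 and 58.7 in wild type ones. The groups did not overlap (12.3% of tested clusters were higher in this manner), but with each array under 100 the gene was not tested, and a log2 difference of 0.81, or 1.02 without wild type array C, is given as a description.

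*Angpt2* was 1128, 1058 and 1302 in mutant mesangial cells, within the span of the wild type arrays. Its log2 difference was 0.01 (95% interval -0.42 to 0.44, adjusted p = 0.981), and -0.19 without array C. *Tie1* gave 83.9, 73.9 and 66.2 against 66.4, 59.9 and 151.0, with a difference of -0.18 (adjusted p = 0.789) that was 0.24 without array C. *Angptl4* gave 89.9, 130.2 and 118.5 against 101.5, 104.9 and 90.8 (0.17, adjusted p = 0.548, and 0.11 without array C).

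The endothelial markers were read beside the mesangial values. Of the 8 markers 7 were tested, 6 had a negative log2 difference, and their median was -0.45, beside -0.02 over all clusters. 1 of them, *Ehd3*, which encodes an endocytic protein of glomerular endothelium, was called (-0.98, adjusted p = 0.0121), a call lost with all 18 arrays in 1 fit (0.154) and without mutant array B (0.0512). Without array C the median of the 7 was 0.43. The differences of *Tek*, *Ptprb* and *Ehd3* were then -0.95, -1.02 and -0.96, whereas those of *Pecam1*, *Cdh5*, *Emcn*, *Kdr*, *Flt1*, *Eng* and *Robo4* were above 0, at 0.62, 0.67, 0.43, 0.43, 0.26, 0.11 and 0.11. *Pecam1* and *Cdh5* encode adhesion molecules at endothelial junctions.

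Without array C, the mean signal of *Tek* was 679.1 in wild type and 348.4 in mutant mesangial cells and that of *Ptprb* 306.4 and 159.2. Of the 8 endothelial markers, *Ehd3* likewise had a lower mean in the mutants, at 567.6 in wild type and 290.9 in mutant cells, and the other 7 had higher means in the mutants, among them *Emcn* at 805.1 and 1071. Of these 7, *Kdr*, which encodes the main VEGF receptor, *Pecam1* and *Robo4* had wild type means under 100, at 79.4, 94.8 and 54.4. The 6 mesangial markers summed to 6936, 6396 and 7052 in the mutants against 8356, 9339 and 8395, with 4 of 6 negative, a median log2 difference of -0.53, and 2 called lower, *Pdgfrb* (-0.58, adjusted p = 0.0420) and *Itga8* (-0.59, adjusted p = 0.0235). Without array C the 2 called were *Itga8* and *Des*. The 5 juxtaglomerular and smooth muscle markers summed to 1592, 2603 and 2892 in the mutants against 1425, 1609 and 1326, with *Acta2* at 1.07 (adjusted p = 0.0949) and none called. The part of endothelial, mesangial and smooth muscle RNA in the mesangial values of the members was not tested.

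In podocytes no member of 5 tested passed with limma, where 0.0578% of 12113 clusters, 7 in number, did. Before adjustment 3 members had a p under 0.05, as did 14.3% of clusters. *Tek* gave 170.5, 90.4 and 58.5 in mutant podocytes A, B and C against 410.4, 524.3 and 324.5 in wild type podocytes. The groups did not overlap, and mutant arrays B and C lay under the minimum. The log2 difference was -2.09 (SE 0.37, 95% interval -2.96 to -1.23, adjusted p = 0.135).

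*Ptprb* gave 273.4, 98.3 and 99.8 against 467.9, 652.4 and 450.0, a log2 difference of -1.89 (SE 0.39, adjusted p = 0.144), also without overlap. *Tek* and *Ptprb* met the screen, as did 4.34% of clusters in that direction. Without mutant podocyte array A, the highest of the mutants for both, each passed, *Tek* at -2.50 (adjusted p = 0.0137) and *Ptprb* at -2.38 (adjusted p = 0.00926). In that fit 6 of the 7 tested endothelial markers were also called lower, and the median of the 7 was -2.13. The share of all clusters called in that fit is not given here. *Tek* and *Ptprb* also passed when all 18 arrays shared 1 estimate of the spread (adjusted p = 0.00163 and 0.0171). Without wild type podocyte array B, *Tek* was at -1.92 (adjusted p = 0.433) and *Ptprb* at -1.72 (adjusted p = 0.466).

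*Angptl2* gave 1218, 799.4 and 1250 in mutant podocytes against 1462, 1511 and 1472, with a log2 difference of -0.47 (SE 0.19, adjusted p = 0.325). *Tie1* gave 96.0, 93.2 and 106.1 against 126.0, 129.3 and 108.0, with a difference of -0.30 (adjusted p = 0.359). For these genes too every mutant array lay below every wild type array. Thus 4 of the 7 members were lower without overlap, which held for 14.3% of the clusters tested. *Angpt2* overlapped, at 315.6, 208.5 and 87.3 against 229.3, 291.9 and 242.9 (-0.50, SE 0.42, adjusted p = 0.612).

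*Angpt1* in mutant podocytes gave 36.6, 30.1 and 28.8, and *Angptl4* gave 99.0, 95.4 and 84.6, and neither was tested. The podocyte is held to be a main source of ANGPT1 in the glomerulus, and on these arrays its gene was under the minimum in podocytes of both genotypes. For mesangial cells the study reports many genes changed by RNA sequencing that its arrays failed to detect. A signal under the minimum thus does not show that *Angpt1* is silent in podocytes.

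The endothelial markers moved with the podocyte values of *Tek* and *Ptprb*. All 7 tested markers were lower in mutant podocytes at the screen and none passed the adjusted threshold, with a median log2 difference of -1.66 and a range from -2.53 to -1.34, beside a median of -0.04 over all clusters. Without wild type array B the median was -1.53. The summed markers ran from 744.5 to 2607 in mutant podocytes and from 4171 to 5500 in wild type podocytes. Mutant array A, the highest of the mutants for *Tek* and *Ptprb*, was also the highest for the markers, and array C was the lowest for *Tek* and for the markers.

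As a share of the wild type endothelial mean, *Tek* stood at 21.4% in wild type and 5.42% in mutant podocytes, *Ptprb* at 22.8% and 6.86%, and the 8 endothelial markers at shares that differed widely. *Kdr* stood at 24.7% and 5.46%, *Flt1* at 20% and 7.12%, *Pecam1* at 25.9% and 9.61%, *Cdh5* at 32.2% and 10.5%, *Emcn* at 44.1% and 11%, *Ehd3* at 30.8% and 11.6%, *Eng* at 30% and 14%, and *Robo4*, under 100 in podocytes, at 39.5% and 38.8%. No background was subtracted from these signals. The 6 mesangial markers were lower too, with sums of 2710, 2065 and 883.4 in mutant podocytes against 3505, 3175 and 2778. *Angpt2*, the member highest in mesangial cells, was lowest on the same mutant array C. The 5 juxtaglomerular and smooth muscle markers moved the other way, at 2970, 2374 and 1022 against 766.3 to 782.9. The part of these other cells in the podocyte values was not tested.

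**Figure D3:**
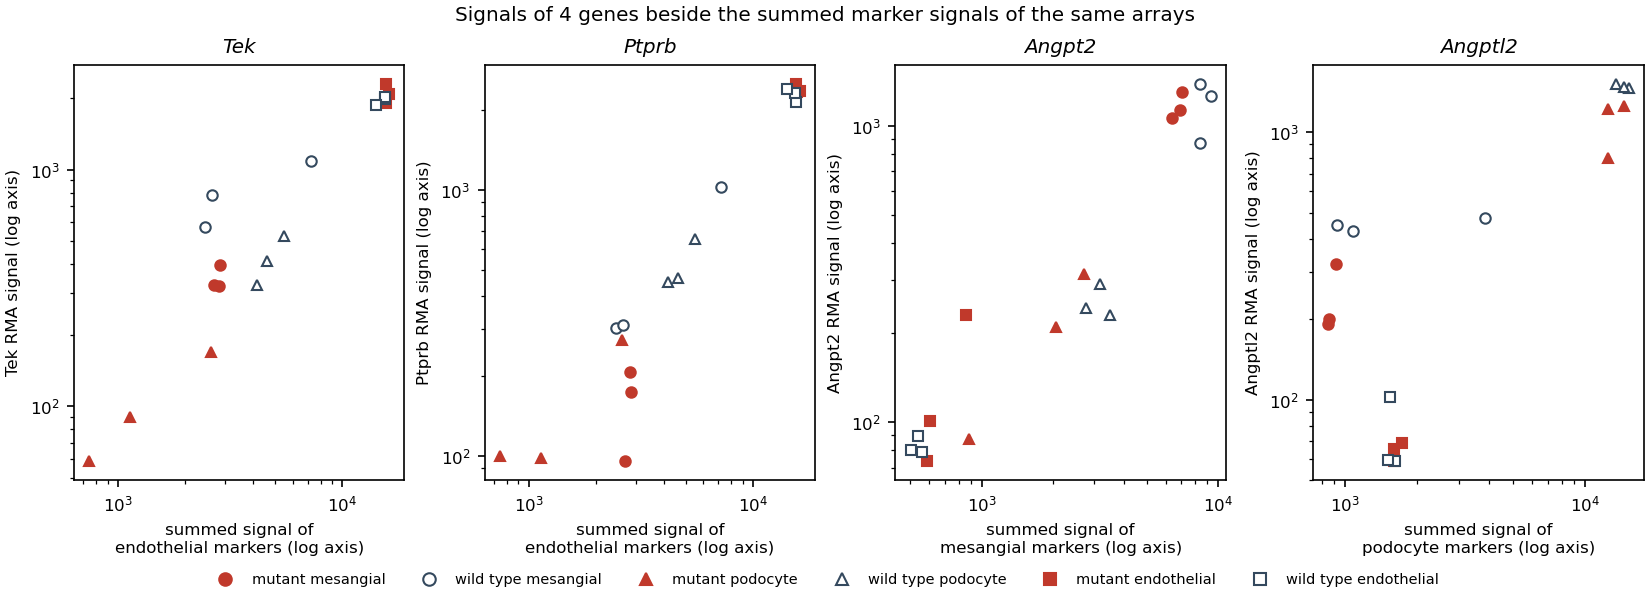
Signal of *Tek* and *Ptprb* against the summed signal of 8 endothelial markers, of *Angpt2* against 6 mesangial markers and of *Angptl2* against 8 podocyte markers, 1 point per array, both axes logarithmic. In podocytes (triangles) *Tek* and the markers are both lower in the mutant. Among mesangial arrays (circles) the mutants and wild type arrays A and B have marker sums between 2446 and 2847, at different *Tek* signals. *Emcn*, *Eng* and *Ehd3* have the largest means in those sums. Mean *Emcn* is 805.1 on wild type arrays A and B and 1071 in mutants, and mean *Ehd3* 567.6 and 290.9. Similar sums thus hold opposite differences, and the endothelial part was not tested. Wild type array C has both the highest marker sum of the mesangial arrays, 7218, and the highest *Tek* signal, 1090.

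In endothelial cells, the main known site of the receptors, none of 5 tested members passed with limma and 1 had an unadjusted p under 0.05, while 1.29% of 11330 clusters passed and 18.5% had such a p. *Tek* gave 1911, 2078 and 2297 in mutant endothelial cells against 1994, 2033 and 1871. The groups overlapped, and the log2 difference was 0.09 (SE 0.10, 95% interval -0.14 to 0.32, adjusted p = 0.659). Since cells of both genotypes were gated by the *Tek* promoter reporter, this value describes cells chosen by that promoter, and the part of the gate in it was not tested. *Ptprb* gave 2346, 2352 and 2504 against 2153, 2327 and 2396 (0.07, 95% interval -0.14 to 0.27, adjusted p = 0.709).

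*Tie1* gave 449.5, 463.6 and 477.8 in mutant endothelial cells against 437.1, 346.9 and 355.6. The mutant arrays lay above the wild type arrays without overlap, as in 17.7% of clusters, and the log2 difference was 0.30 (SE 0.11, 95% interval 0.04 to 0.55, adjusted p = 0.222). *Angpt2*, which activated endothelium is known to make, gave 228.6, 73.4 and 100.4 against 89.5, 80.1 and 78.9. Mutant array A alone stood well above the others, the groups overlapped, and the difference was 0.53 (SE 0.36, adjusted p = 0.456). On that array the mesangial markers summed to 860.6 and the leukocyte markers to 721.5, against 587.4 and 606.3, and 549.4 and 428.8, on mutant arrays B and C. On wild type arrays A, B and C the mesangial markers summed to 538.5, 500.8 and 559.4, below every mutant array. The leukocyte markers summed there to 442.5, 495.9 and 490.7, which overlaps the mutants. The part of these markers in the *Angpt2* value was not tested.

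*Angptl2* gave 58.7, 69.1 and 65.1 against 59.0, 101.9 and 59.6 (-0.15, adjusted p = 0.732). It was tested through wild type array B alone, since no other endothelial array reached 100. *Angptl4* was under 100 on the 6 endothelial arrays, at 65.3, 54.3 and 61.4 against 60.1, 69.1 and 66.1, and *Angpt1* gave 37.1, 41.1 and 42.01 against 38.5, 37.8 and 46.2. Neither was tested. The 8 endothelial markers had a median log2 difference of 0.14 in these cells, beside 0.07 over all clusters.

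**Figure D4:**
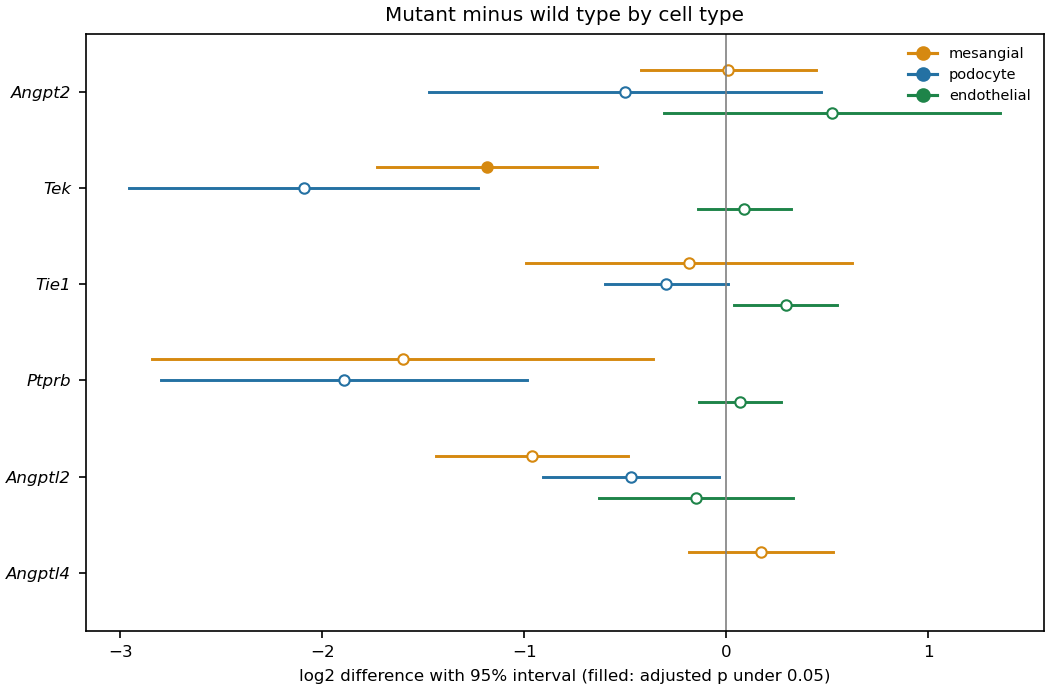
Mutant minus wild type log2 difference of the 6 genes tested, by cell type, with points at the limma estimate within that cell type, bars for the 95% interval and a filled point where the adjusted p is under 0.05. *Tek* and *Ptprb* lie below 0 in mesangial cells and podocytes and near 0 in endothelial cells, and the 1 filled point is *Tek* in mesangial cells at -1.19.

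Whether the genotype difference itself varied between cell types was tested over all 18 arrays and 13523 clusters. For endothelial cells against podocytes, *Tek* passed, with a difference of differences of 2.18 (SE 0.42, adjusted p = 0.0237), and it was the 1 member of 6 to do so, where 2.11% of clusters did. The endothelial side of this contrast comes from cells gated by the *Tek* promoter reporter, and the part of the gate in the value was not tested. None of the 5 members other than *Tek* passed. The value is the log2 difference of *Tek* in endothelial cells minus that in podocytes. The adjusted p was between 0.0505 and 0.0650 in 5 of the 18 fits with 1 array left out, and without wild type podocyte array B the value was 2.01 (adjusted p = 0.0499). *Ptprb* gave 1.96 in the same contrast (SE 0.61, adjusted p = 0.0840), and passed without mutant podocyte array A (2.45, adjusted p = 0.0134) and without wild type mesangial array C (1.96, adjusted p = 0.0406). The 8 endothelial markers ran there from 0.36 for *Robo4* to 2.51 for *Kdr*, with *Emcn* at 2.43, *Cdh5* at 2.03, *Pecam1* at 1.87, *Flt1* at 1.56 and *Eng* at 1.54, and *Ehd3* between *Robo4* and *Eng*. None of the 8 passed with limma (adjusted p from 0.0802 to 0.364), and 6 had an unadjusted p under 0.05, as did 23.4% of all clusters. In the fits in which *Ptprb* passed, 3 of the 8 markers passed too: *Cdh5*, *Kdr* and *Flt1* without wild type mesangial array C, and *Emcn*, *Ehd3* and *Eng* without mutant podocyte array A. The shares of all clusters in those fits are not given here.

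For endothelial against mesangial cells no member of 6 passed with limma and 3 had an unadjusted p under 0.05, where 1.07% of clusters passed and 15.9% had such a p. *Tek* gave 1.27 (adjusted p = 0.157), *Ptprb* 1.67 (adjusted p = 0.197) and *Angptl2* 0.82 (adjusted p = 0.217). Without wild type mesangial array C these were 1.04 (adjusted p = 0.307), 1.09 (0.357) and 0.78 (0.343). Without mutant podocyte array A, *Tek* passed at 1.27 (adjusted p = 0.0497). For podocytes against mesangial cells no member passed and 1 had an unadjusted p under 0.05, *Tek* at -0.91 (adjusted p = 0.402), where 0.717% of clusters passed and 12% had such a p. Without mutant podocyte array A it passed at -1.32 (adjusted p = 0.0440), and without wild type mesangial array C it was -1.14 (adjusted p = 0.257). That call thus turned on 1 array.

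The wider pathway was read from 5 lists of 65 genes, of which 63 were in the table. Of the 53 tested in wild type cells, 19 were higher and 17 lower in endothelial than in mesangial cells, where 15.9% of all clusters were higher and 16.1% lower. Without mesangial array C these were 17 and 17 of 52, and the shares of all clusters in that fit are not given. Among the 20 tested genes of Tie signalling, 7 were higher and 6 lower, with a median of 0.02 beside 0.01 over all clusters. The higher ones included *Cdh5* (3.40, and 4.52 without array C), *Pik3cb*, a catalytic subunit of PI3 kinase (1.56), *Jup*, which encodes the junctional protein plakoglobin (1.42), and *Nck1*, an adaptor (1.26). The lower ones included *Pik3r1*, a regulatory subunit of PI3 kinase (-2.45), *Itgav*, an integrin chain (-1.92), *Akt2*, a kinase downstream of PI3 kinase (-1.21), and *Shc1*, an adaptor (-0.69).

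Against podocytes, endothelial cells had 6 Tie signalling genes higher and 7 lower. *Nck1* (1.51), *Foxo1*, the transcription factor that AKT restrains (1.44), and *Itga5* (0.64) were in the first group. *Pak1*, a kinase that acts with NCK adaptors (-4.97), *Itgav* (-2.93), *Akt2* (-1.78) and *Pik3r1* (-1.16) led the second. Of all clusters 21.9% were higher and 16.9% lower. Without mesangial array C, where such shares are not given, the list had 9 higher and 7 lower. The list thus had members in both directions in both contrasts.

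Among the sprouting genes and regulators of *Angpt2*, 3 of 16 tested were higher and 5 lower in podocytes than in mesangial cells, where 11% of all clusters were higher and 17% lower. Without mesangial array C 6 were higher and 4 lower, with no share of all clusters given for that fit. The higher ones were led by *Vegfa*, which encodes the main angiogenic factor of the glomerulus (2.84, adjusted p = 4.4e-04, and 3.40 without array C), and *Foxc2*, a transcription factor (2.31, adjusted p = 3.3e-05). Of the partners of angiopoietin-like proteins, *Lpl*, the lipase that ANGPTL4 inhibits, was lower in endothelial cells than in mesangial cells (-1.63, adjusted p = 0.0151, and 0.0515 without wild type mesangial array B) and podocytes (-1.64, adjusted p = 0.0117). Without wild type endothelial array A these were -1.03 and -1.04. *Gpihbp1*, which anchors that lipase to capillary endothelium, was higher in endothelial cells than in both (2.62 and 2.16, adjusted p = 2.5e-04 and 6.8e-04), the first at 3.05 without mesangial array C.

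With genotype, none of 49 tested pathway genes passed with limma in mesangial cells and none of 53 in podocytes, with 11 and 14 of them under 0.05 before adjustment, where 21.7% and 14.3% of all clusters were. Of the 21 tested Tie signalling genes, 14 had a negative log2 difference in podocytes, with a median of -0.09 beside -0.04 over all clusters. In mesangial cells 14 of 19 did, with a median of -0.07 beside -0.02, and 10 of 16 without array C. Without that array 1 pathway gene passed, *Fabp4*, which encodes a fatty acid binding protein and was higher in the mutant, named here after its value was seen.

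In endothelial cells 3 of 49 passed, all higher in the mutant, as did 1.21% of all clusters. They were *Gpihbp1* (0.78, adjusted p = 0.0409), *Plin2*, which encodes a coat protein of lipid droplets (0.97, adjusted p = 0.0475), and *Cpt1a*, which encodes the enzyme that admits fatty acids to mitochondria (0.84, adjusted p = 0.0182). *Gpihbp1* signals were 1574, 1196 and 1430 in mutant endothelial cells against 931.5, 727.2 and 777.7, with no overlap. The last 2 belong to the list of PPAR receptors and target genes, 9 of whose 10 tested genes were above 0 with a median of 0.28 beside 0.07. *Angptl4*, a target on the same pathway, was under the minimum in these cells. The exception to the sign, *Cd36*, a fatty acid carrier named here after its value was seen, gave 281.7, 572.4 and 648.1 against 1021, 864.3 and 1060 (-1.05, adjusted p = 0.131). Left out in turn, mutant arrays A and C and wild type array C each ended the calls of all 3 genes, with adjusted p between 0.0551 and 0.192. Without a signal minimum none of the 3 passed either. The call of *Gpihbp1* was also lost with all 18 arrays in 1 fit (0.179) and without wild type array B (0.146), and that of *Plin2* with quantile normalization repeated (0.0710) and without wild type arrays A (0.0578) or B (0.156).

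The genes whose log2 signals followed each member over the 18 arrays were listed among 9959 clusters with 1 symbol, as a description of patterns set largely by cell type. *Angpt2* was followed by *Pik3r1* (r = 0.985) and *Arhgdib* (0.985), and *Pik3r1* is itself on the Tie signalling list. *Tek* was followed by *Sdpr* (0.983), *Lphn2* (0.979) and *Pik3r3* (0.977), *Tie1* by *Ahr* (0.993), *Dock9* (0.990) and *Lama3* (0.989), and *Ptprb* by *Ccnk* (0.979), *Rtp3* (0.972) and *Gimap6* (0.969).

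*Angptl2* was followed by *Robo2* (0.977), *Ptprd* (0.974) and *Leprel1* (0.972). *Angptl4* was followed by *Fzd1* (0.935), *Cpe* (0.932) and *Lpcat2* (0.932), and *Angpt1*, at its low signals, by *Fbln5* (0.903), *Col14a1* (0.870) and *Alox5ap* (0.870). Between members, r over the same arrays was 0.91 for *Tek* with *Ptprb*, 0.90 for *Tie1* with *Ptprb*, 0.75 for *Tek* with *Tie1* and -0.78 for *Angpt2* with *Tie1*. These arrays share 3 cell types, so the r values carry the cell type differences already described.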

How the data were processed

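The authors deposited 1 linear intensity per transcript cluster and array, made by RMA in Expression Console per the labels (background correction, quantile normalization, summary over probes). RMA compresses differences at low signal, so folds of genes near 100 can be understated. The deposited table also holds log2 values centred on the median of each cluster, 18 columns that were not used. The series record names Exon arrays and GeneBASE, but the file header and the study's methods name Gene ST arrays.

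Differences were fitted on log2 signals by limma 3.58.1 (lmFit, eBayes; R 4.3.3) with no covariates, in the 6 arrays of a cell type for genotype, in the 9 arrays of a genotype for cell types, and in all 18 for differences of differences. A cluster entered when 1 or more arrays of the comparison reached a signal of 100. Adjusted p values are Benjamini-Hochberg over all clusters of that comparison, and a gene was called at an adjusted p under 0.05. There were 12 comparisons. The code was tested on simulated data.

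Members and lists were chosen with earlier results of these data known. Named are the 7 members, list genes that were called (at most 4 in each direction and comparison), the 3 genes most like each member, and marker genes. Not every list gene under that rule is named, and some genes under it are not reported here. The number of arrays limits the precision. Columns match groups but not single samples, so arrays were not paired.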

Additional observations from a re-analysis of the deposited data

Results flagged for a closer look

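The genotype difference of *Tek* in endothelial cells minus that in podocytes was 2.1804 on the log2 scale by the test of the difference itself (adjusted p = 0.0237 with limma over 18 arrays, up to 0.0650 and no longer passing in 5 of the 18 fits with 1 array left out). The endothelial cells of both genotypes were gated by a reporter driven by the *Tek* promoter, and the part of that gate in the value was not tested. *Tek* was lower in the mutant on 3 of 3 podocyte arrays against every wild type array, and overlapped in endothelial cells. The 8 endothelial markers summed to between 744.5 and 2607 in mutant podocytes and to between 4171 and 5500 in wild type podocytes, and their part in this value was not tested.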

How the results depend on the processing

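Of 655 single gene differences recomputed under other settings, 627 kept their direction and side of the threshold, 13 passed newly, 13 no longer passed and 2 changed sign. Of 93 counts, 74 stayed within 1.5 times. In mesangial cells 1 member and 0 pathway genes passed. These were 2 and 2 with the minimum in all 3 arrays of a group, 0 and 1 with no minimum, 2 and 3 with an intensity trend and robust estimation, 0 and 1 with array medians subtracted, 3 and 3 with all 18 arrays in 1 fit, and 3 and 2 by the screen. Quantile normalization repeated left 0 members. In podocytes, 0 members and 0 pathway genes became 2 and 5 in the fit of 18 arrays and 2 and 9 by the screen. In endothelial cells 3 pathway genes became 0 with no minimum and 9 by the screen. Of all clusters, 5.19% met the screen in either direction in mesangial cells, 5.61% in podocytes and 3.82% in endothelial cells. The shares of all clusters that passed under the other settings are not given here. Those counts thus have no background beside them. *Angpt2* in mesangial cells, 0.01, changed sign to -0.0054 with medians subtracted and -0.0151 with quantile normalization repeated.

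Leaving out 1 array at a time, counts ran from 0 to 1 for members and from 0 to 1 for pathway genes in mesangial cells, from 0 to 2 and from 0 to 7 in podocytes, and from 0 to 6 for pathway genes in endothelial cells. The podocyte highs came without mutant array A. The shares of all clusters that passed in fits with 1 array left out are not given here. The wild type count between podocytes and mesangial cells ran from 2, without podocyte array C, which ended the call of *Tek* at adjusted p = 0.0558, to 5. Counts of differences between cell types in the genotype effect ran from 0 to 1, 0 to 1 and 0 to 2 for podocytes against mesangial, endothelial against mesangial and endothelial cells against podocytes. The high of the first 2 was *Tek* without mutant podocyte array A. That of *Tek* for endothelial cells against podocytes ran from 1.82 to 2.59, with adjusted p up to 0.0650, and no longer passed without mutant endothelial A or C, wild type endothelial B or C, or wild type podocyte A.

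Differences not called with all arrays changed sign in some of these fits. *Angpt2* with genotype ran from -0.19 to 0.14 in mesangial cells and from -0.91 to 0.018 in podocytes. *Ptprb* between podocytes and mesangial cells ran from -0.13 to 0.75 in wild type (called at 0.75, without wild type mesangial array C) and from -0.61 to 0.13 in mutant arrays. The podocyte against mesangial difference of the genotype effect ran from -0.92 to 0.0076 for *Angpt2*, -0.53 to 0.13 for *Tie1*, -0.87 to 0.011 for *Ptprb* and -0.21 to 0.059 for *Angptl4*. The cause was not tested for any of these. No paired analysis was possible because the columns carry no number shared between groups. Each member has 1 cluster, so a second cluster could not be tried. Signals under 100 limit *Angpt1*, at 100 or above on 0 of 18 arrays, *Angptl4* (4), *Tie1* (11), *Angpt2* (13) and *Angptl2* (13), and *Tek* and *Ptprb* in mutant podocytes.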
